A study of Mus musculus with 12 samples.

Results

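The Sox genes described here are 10 transcription factor genes, Sox4, Sox5, Sox6, Sox7, Sox9, Sox10, Sox11, Sox13, Sox17 and Sox18, out of 19938 mouse genes measured in sorted mammary cells. They were chosen by name, each through the probeset that carries its symbol alone, and all 10 were found, each with 1 probeset. The values come from 12 Affymetrix arrays in 4 groups of 3, given as log2 values from robust multi-array average (RMA) summaries. Females of 10 to 14 weeks either had Wnt4 deleted under the genotype MMTV::Cre+.Wnt4fl/fl.mT/mG or were WT controls of the genotype MMTV::Cre+.Wnt4wt/wt.mT/mG, so mice of both genotypes carried Cre and the mT/mG reporter. Cre was driven by the MMTV promoter, which is active in mammary epithelium, and the reporter turns green in cells where Cre has acted. After depletion of lineage-positive cells, GFP+ cells were split by the surface protein CD24 into CD24 high cells, labelled luminal, and CD24 low cells, labelled myoepithelial. The design text names glands as the tissue and the treatment notes name grafts, and no host, donor or pooling of animals is given.

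Sox proteins bind DNA through a high mobility group (HMG) box, bend it, and mostly act together with a partner factor at each gene. They fall into groups by sequence. The SoxC genes Sox4 and Sox11 act in progenitor and developing neural cells, the SoxD genes Sox5, Sox6 and Sox13 lack a domain that activates or represses transcription on its own, the SoxE genes Sox9 and Sox10 mark stem and progenitor states in several epithelia and in neural crest, and the SoxF genes Sox7, Sox17 and Sox18 act in blood and lymphatic vessels. In the mammary gland Sox9 and Sox10 are known for stem and progenitor activity, and Sox9 has been placed among the genes of luminal progenitors.

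Arrays are called here by the number in their title. Wnt4-deleted CD24 high arrays were 4, 12 and 16, WT CD24 high arrays 2, 10 and 14, Wnt4-deleted CD24 low arrays 3, 11 and 15, and WT CD24 low arrays 1, 9 and 13. The numbers form 3 sets (1 to 4, 9 to 12, 13 to 16) with 1 array of each group, but the labels tie no set to an experiment or an animal. The labels of the fractions were checked first. All 10 myoepithelial markers were lower in CD24 high than in CD24 low cells and all 10 general luminal markers were higher, in both genotypes. The mean of the luminal markers was 10.98 to 11.31 on CD24 high arrays and 8.26 to 9.06 on CD24 low arrays. Wnt4 itself had 6.11, 6.46 and 6.78 in Wnt4-deleted CD24 high cells, against 7.42, 7.92 and 7.62 in WT CD24 high cells, a difference of -1.20 (SE 0.19, adjusted p = 0.416). The deleted cells were lower on every array, but the difference did not pass over all genes, and whether the Wnt4 probes lie in the deleted part is not known. In CD24 low cells the Wnt4 difference was -0.14 (SE 0.19). Among CD24 low arrays, 1 and 3 stood out for skeletal muscle markers (list means of 7.18 and 8.13, against 5.16 to 5.74 on the other 10 arrays) and arrays 9 and 11 for fibroblast markers (8.81 and 8.42, against 5.56 to 6.72 on the others).

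Between the cell fractions, Sox9 and Sox6 were higher in CD24 high cells, and Sox4, Sox7 and Sox18 were lower, each in at least 1 genotype. Differences are CD24 high minus CD24 low on the log2 scale, on which 1 is 2-fold, with their standard error (SE), and a gene passed where its p-value from limma, adjusted over all genes, was under 0.05. Sox9 and Sox7 passed in both genotypes. In Wnt4-deleted cells 3 of 10 Sox genes passed (Sox9 higher, Sox7 and Sox18 lower), where 16.4% of all genes passed. In WT cells 4 of 10 passed (Sox6 and Sox9 higher, Sox4 and Sox7 lower), where 16.1% of all genes passed. By direction, 8.23% of all genes passed as higher and 8.22% as lower in Wnt4-deleted cells, and 7.93% and 8.21% in WT cells. At an unadjusted p under 0.05 there were 6 of 10 in each genotype, against 27.9% of all genes in Wnt4-deleted and 26.4% in WT cells. The fractions did not overlap for 5 of 10 Sox genes in Wnt4-deleted cells (29.3% of all genes) and for 7 of 10 in WT cells (32.8%). The median difference of the 10 genes was -0.20 in Wnt4-deleted and -0.36 in WT cells, against medians of 0.01 and 0.02 over all genes. With arrays 9 to 16 only, 4 and 6 of the 10 passed in Wnt4-deleted and WT cells. In sorted bulk samples, fewer cells of a type and less RNA per cell cannot be told apart.

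**Figure D1:**
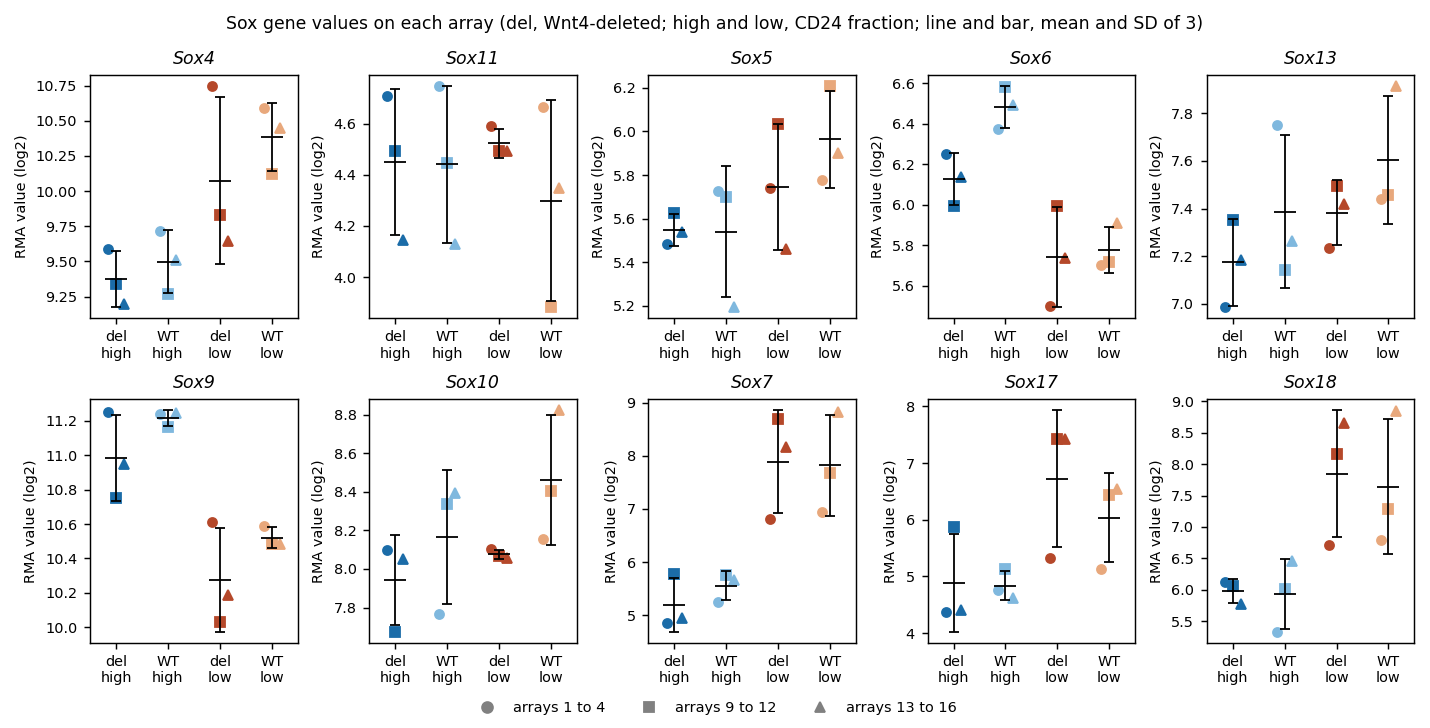
RMA values (log2) of the 10 Sox genes on each array, by group, with Wnt4-deleted (del) left of WT and CD24 high left of CD24 low. Symbols give the set of title numbers, and the line and bar give the mean and SD of 3 arrays. Sox7 lay between 4.86 and 5.77 on the CD24 high arrays and between 6.82 and 8.83 on the CD24 low arrays. Each panel has its own scale, which does not start at 0.

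Sox9, the SoxE factor of progenitor cells, was higher in CD24 high cells in both genotypes. In Wnt4-deleted cells it had 11.25, 10.75 and 10.95 on the CD24 high arrays, against 10.61, 10.03 and 10.18 on the CD24 low arrays. The WT cells had 11.24, 11.17 and 11.25 on the CD24 high arrays, against 10.59, 10.49 and 10.49 on the CD24 low arrays. Every CD24 high array lay above every CD24 low array, across both genotypes. The difference was 0.71 (SE 0.16, 1.63-fold, adjusted p = 0.0122) in Wnt4-deleted cells and 0.70 (SE 0.16, 1.62-fold, adjusted p = 0.0131) in WT cells. Within the 3 sets of title numbers it was 0.64, 0.72 and 0.77 in Wnt4-deleted cells and 0.65, 0.68 and 0.76 in WT cells. The group means ran from WT CD24 high (11.22 ± 0.05) over Wnt4-deleted CD24 high (10.98 ± 0.25) and WT CD24 low (10.52 ± 0.06) to Wnt4-deleted CD24 low (10.28 ± 0.30; SD, n = 3 each), and the genotypes did not differ beyond their spread within either fraction. A fit on the compared groups alone gave an adjusted p of 0.0802 in Wnt4-deleted cells.

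Sox10, the SoxE factor of neural crest and glia, showed no fraction difference that passed. It had 8.10, 7.68 and 8.05 in Wnt4-deleted CD24 high cells, against 8.10, 8.06 and 8.06 in Wnt4-deleted CD24 low cells. WT cells showed 7.77, 8.33 and 8.40 on the CD24 high arrays, against 8.16, 8.40 and 8.82 on the CD24 low arrays. The fractions overlapped in both genotypes. The differences were -0.13 (95% interval -0.58 to 0.32) in Wnt4-deleted and -0.29 (-0.75 to 0.16) in WT cells. The order of the means was WT CD24 low, WT CD24 high, Wnt4-deleted CD24 low and Wnt4-deleted CD24 high, and none of the differences tested between them passed.

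Of genes that Sox10 is known to act on in neural crest and glia, 5 of the 8 listed were measured, and 1 passed as higher and 2 as lower in CD24 high cells, the same counts in both genotypes. Erbb3, a neuregulin receptor that luminal cells also use, was higher by 3.44 (SE 0.22) in Wnt4-deleted and 2.95 (SE 0.22) in WT cells. Ednrb, an endothelin receptor, was lower (-2.53, SE 0.53, adjusted p = 0.00651 in Wnt4-deleted cells and -1.79, SE 0.53, adjusted p = 0.0391 in WT cells), as was Ret, a receptor tyrosine kinase (-0.98 and -0.97, SE 0.21 each). Within the low fraction Ednrb was lowest on arrays 1 and 3 (5.04 and 5.56, against 6.36 to 7.57 on the others). Ret was also lowest there (5.635 and 5.412, against 5.829 to 6.295), and Sox10 was not. Of Schwann cell markers 6 of 9 were measured, and Pmp22 alone passed, lower in CD24 high cells in both genotypes. Their list mean was 5.45 to 5.78 on CD24 high arrays and 6.16 to 6.32 on CD24 low arrays. The list did not shift as a whole, as 3 were higher and 3 lower in CD24 high cells in each genotype. The median differences were -0.015 in Wnt4-deleted and 0.032 in WT cells. No melanocyte marker passed (0 of 6 by limma, with 0 in Wnt4-deleted and 1 in WT cells at an unadjusted p under 0.05), with list means of 4.45 to 4.69 on CD24 high and 4.38 to 4.61 on CD24 low arrays.

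Sox8, the remaining SoxE gene, is not among the 10 but belongs to the same group, and it showed the opposite pattern to Sox9. It had 5.42, 5.62 and 5.59 in Wnt4-deleted CD24 high cells, against 7.58, 7.13 and 7.17 in Wnt4-deleted CD24 low cells. Values in WT cells were 5.96, 5.88 and 5.58 on the CD24 high arrays, against 7.35, 7.83 and 8.14 on the CD24 low arrays. The fractions were far apart on every array. Sox8 was lower in CD24 high cells, at -1.75 (SE 0.20, 3.37-fold, adjusted p = 1.3e-04) in Wnt4-deleted and -1.97 (SE 0.20, 3.91-fold, adjusted p = 5.7e-05) in WT cells. Of 10 other Sox genes measured, Sox8 and Sox14 were the ones that passed in any comparison. Sox14, a SoxB gene known from the nervous system, was higher in WT CD24 high cells (0.74, SE 0.23, adjusted p = 0.0491), and its difference in Wnt4-deleted cells was 0.72 (SE 0.23, adjusted p = 0.0562).

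Sox6, the SoxD factor that works beside Sox5 and Sox9 in cartilage, had 6.25, 5.99 and 6.14 in Wnt4-deleted CD24 high cells, against 5.50, 5.99 and 5.73 in Wnt4-deleted CD24 low cells. In WT cells the values were 6.37, 6.58 and 6.49 on the CD24 high arrays, against 5.70, 5.72 and 5.91 on the CD24 low arrays. The WT fractions were clearly apart, while in the deleted cells array 12 of the high fraction and array 11 of the low fraction all but met. Sox6 was higher in CD24 high cells by 0.71 (SE 0.14, 1.63-fold, adjusted p = 0.00508) in WT cells, and its difference in Wnt4-deleted cells was 0.39 (SE 0.14, adjusted p = 0.0912). The value in Wnt4-deleted cells passed without array 11 (0.51, adjusted p = 0.0363), after median centring (adjusted p = 0.0446) and after a second quantile normalisation (adjusted p = 0.0345). That the fraction difference of Sox6 differs between genotypes was tested by the interaction in limma, which was 0.32 (SE 0.20, adjusted p = 1).

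RefSeq promoter windows (250 bases before to 50 after a transcript's start, build GRCm38.p6) matched 5 of the 10 genes in 10 windows: 6 of Sox6 and 1 each of Sox4, Sox5, Sox11 and Sox13. Sox7, Sox9, Sox10, Sox17 and Sox18 were not matched. The letters of a Sox site, AACAAT or its reverse complement ATTGTT, occurred in 1 of the 10 windows, which belongs to Sox6 (chr7:115824661-115824960, minus strand), and in 10.7% of 32851 windows of that length. It is shown 5′ to 3′ because Sox6 is the SoxD gene that passed, with both matches, on opposite strands, in capitals. The window was picked after the matches and the values of Sox6 were known.
Sox6 promoter window: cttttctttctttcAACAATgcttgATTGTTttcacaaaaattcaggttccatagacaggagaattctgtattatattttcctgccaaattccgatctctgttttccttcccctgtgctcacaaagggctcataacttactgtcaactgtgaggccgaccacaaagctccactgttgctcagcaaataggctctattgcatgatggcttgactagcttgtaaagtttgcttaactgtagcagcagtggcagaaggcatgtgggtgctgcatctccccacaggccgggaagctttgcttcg
At least 2 such matches occurred in 1.11% of all windows. The letters of a TCF site, TCAAAG or CTTTGA, the DNA motif of the factors through which canonical Wnt signals act, occurred in 3 of the 6 Sox6 windows and in 0 of the windows of the other 4 genes, against 16% of all windows. A match of letters is a description and not a site that was bound.

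Sox5 and Sox13, the other SoxD factors, passed in neither genotype. Sox5 ranged over 5.48 to 5.62 in Wnt4-deleted CD24 high cells, against 5.46 to 6.03 in Wnt4-deleted CD24 low cells, a difference of -0.20 (SE 0.19). In WT cells Sox5 was 5.20 to 5.73 on the CD24 high arrays, against 5.78 to 6.21 on the CD24 low arrays, a difference of -0.42 (SE 0.19, adjusted p = 0.175). The WT fractions did not overlap for Sox5, and the Wnt4-deleted ones did. Sox13, known from T cells, ranged over 6.99 to 7.35 in Wnt4-deleted CD24 high cells, against 7.23 to 7.50 in Wnt4-deleted CD24 low cells. In WT cells Sox13 was 7.14 to 7.75 on the CD24 high arrays, against 7.44 to 7.92 on the CD24 low arrays. Its fractions overlapped in both genotypes, with differences of -0.21 and -0.22 (SE 0.19 each) in Wnt4-deleted and WT cells. Of 8 cartilage genes known as targets of Sox9 with Sox5 and Sox6, 0 passed in either genotype by limma and 1 had an unadjusted p under 0.05 in each. This was Comp, a cartilage matrix protein, with -0.78 (SE 0.32, adjusted p = 0.133) in Wnt4-deleted and -0.71 (SE 0.32, adjusted p = 0.182) in WT cells. Their median difference was -0.06 in Wnt4-deleted and -0.04 in WT cells, and their list mean was 4.99 to 5.33 on CD24 high and 5.08 to 5.38 on CD24 low arrays.

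Sox4, the SoxC factor that is known for a role in TGF-beta-driven epithelial-mesenchymal transition, was lower in CD24 high than in CD24 low cells of WT mice. It had 9.59, 9.34 and 9.20 in Wnt4-deleted CD24 high cells, against 10.75, 9.83 and 9.64 in Wnt4-deleted CD24 low cells. In WT cells it had 9.72, 9.27 and 9.51 on the CD24 high arrays, against 10.59, 10.12 and 10.45 on the CD24 low arrays. The fractions did not overlap within either genotype, although array 15 of the deleted low fraction lay below array 2 of the WT high fraction. The difference passed in WT cells (-0.89, SE 0.26, 1.85-fold, adjusted p = 0.0395), and in Wnt4-deleted cells it was -0.70 (SE 0.26, adjusted p = 0.0984). The WT call was lost after median centring (adjusted p = 0.0527) and without any 1 of arrays 1, 10, 12, 13, 14 and 16 (adjusted p = 0.0528 to 0.138). In Wnt4-deleted cells it passed with the sets of title numbers as a fixed block (adjusted p = 0.0256), with array weights (0.0357) and without array 15 (-0.91, adjusted p = 0.0439).

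The promoter window of Sox4 (chr13:28953650-28953949, minus strand) held 4 copies of CCAAT or its reverse complement ATTGG, the letters of a common promoter element. It is shown 5′ to 3′ with these letters in capitals, because Sox4 passed in the opposite direction to Sox6, and it was picked after both were known.
Sox4 promoter window: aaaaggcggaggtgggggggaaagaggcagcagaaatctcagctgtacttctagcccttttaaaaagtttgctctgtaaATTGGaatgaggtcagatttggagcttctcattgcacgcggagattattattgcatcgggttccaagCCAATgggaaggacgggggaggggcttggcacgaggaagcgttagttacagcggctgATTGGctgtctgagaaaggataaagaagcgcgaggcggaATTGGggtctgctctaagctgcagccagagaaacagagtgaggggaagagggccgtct
At least 1 copy occurred in 37.4% of all windows and at least 4 copies in 1.06%. A different window of Sox6 also held 4 copies, and that of Sox11 held 1. The Sox4 window held 0 matches to the letters of a Sox or a TCF site.

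Sox11, the other SoxC gene, had the lowest mean over all arrays of the 10 probesets and was the 1 Sox gene under the 40th percentile of all genes (5.46). Its 12 values lay between 3.88 and 4.75, with all groups overlapping, and its fraction differences were -0.08 in Wnt4-deleted and 0.14 in WT cells (SE 0.22 each). Of 4 genes named as SoxC targets, Tead2, a partner of YAP and TAZ, passed, higher in CD24 high cells by 1.66 (SE 0.22) in Wnt4-deleted and 1.43 (SE 0.22) in WT cells. Tubb3, Dcx and Ezh2 did not pass.

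Sox7, Sox17 and Sox18, the SoxF factors of the vessel wall, had the largest standard errors of the 10 genes (0.52 to 0.60 for Sox7 and Sox17). Sox7 had 4.86, 5.77 and 4.96 in Wnt4-deleted CD24 high cells, against 6.82, 8.68 and 8.17 in Wnt4-deleted CD24 low cells. The WT cells had 5.26, 5.76 and 5.66 on the CD24 high arrays, against 6.94, 7.68 and 8.83 on the CD24 low arrays. All CD24 high arrays lay below all CD24 low arrays, with arrays 1 and 3 the lowest of the low fraction. Sox7 was lower in CD24 high cells, at -2.69 (SE 0.52, 6.46-fold, adjusted p = 0.0041) in Wnt4-deleted and -2.26 (SE 0.52, 4.78-fold, adjusted p = 0.0114) in WT cells, and it passed under all 22 alternatives in each genotype. Its mean in Wnt4-deleted CD24 high cells lay under the 40th percentile of all genes given above, as did the Sox17 means of both CD24 high groups. The values carry no detection call, so these fold changes are those of the RMA values, and the change in RNA may be larger. The order of the means was Wnt4-deleted CD24 low (7.89 ± 0.96), WT CD24 low (7.82 ± 0.95), WT CD24 high (5.56 ± 0.27) and Wnt4-deleted CD24 high (5.20 ± 0.50; SD, n = 3 each), with the genotypes within each fraction inside their spread.

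Sox18, which is needed for lymphatic vessels in mice, had 6.12, 6.06 and 5.77 in Wnt4-deleted CD24 high cells, against 6.72, 8.17 and 8.66 in Wnt4-deleted CD24 low cells. WT cells showed 5.33, 6.01 and 6.45 on the CD24 high arrays, against 6.80, 7.28 and 8.85 on the CD24 low arrays. The fractions did not overlap, and arrays 1 and 3 were again the lowest of the CD24 low arrays. Sox18 was lower in Wnt4-deleted CD24 high cells (-1.87, SE 0.56, 3.65-fold, adjusted p = 0.0425), and its difference in WT cells was -1.71 (SE 0.56, 3.28-fold, adjusted p = 0.061). The first call was lost under 10 of 22 alternatives, among them leaving out any 1 of arrays 4, 9, 10, 11, 12, 14, 15 and 16 (adjusted p = 0.0504 to 0.143). The WT difference passed under 7 of 22, among them without array 1 (-2.14, adjusted p = 0.0382) and without array 3 (adjusted p = 0.0266).

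Sox17, which marks arterial endothelium and early endoderm, had 4.37, 5.88 and 4.42 in Wnt4-deleted CD24 high cells, against 5.33, 7.42 and 7.42 in Wnt4-deleted CD24 low cells. Values in WT cells were 4.77, 5.13 and 4.62 on the CD24 high arrays, against 5.13, 6.43 and 6.55 on the CD24 low arrays. Array 12 of the deleted high fraction lay above array 3 of the deleted low fraction, and in WT cells arrays 10 and 1 were nearly level, without overlap. Sox17 did not pass, with -1.84 (SE 0.60, adjusted p = 0.0594) in Wnt4-deleted and -1.20 (SE 0.60, adjusted p = 0.237) in WT cells. In Wnt4-deleted cells it passed under 7 of 22 alternatives, among them without array 3 (-2.53, adjusted p = 0.00535) and without array 12 (-2.33, adjusted p = 0.0309).

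Endothelial markers had lower means in CD24 high than in CD24 low cells, as the SoxF genes did. In CD24 high cells 10 of 15 of them passed as lower in Wnt4-deleted cells and 6 of 15 in WT cells, with medians of -2.49 and -2.19. Emcn, an endothelial surface sialomucin, was lower, at -3.93 (SE 0.98, adjusted p = 0.0176) in Wnt4-deleted and -3.36 (SE 0.98, adjusted p = 0.0373) in WT cells, and Cdh5, the cadherin of endothelial junctions, had -3.44 (SE 0.89, adjusted p = 0.0217) and -3.12 (SE 0.89, adjusted p = 0.0345). The mean of the 15 markers was 5.27 to 6.45 on CD24 high arrays and 6.55 to 9.24 on CD24 low arrays. Within the low fraction it was 6.55 and 6.72 on arrays 3 and 1, and 8.12, 8.92, 8.94 and 9.24 on arrays 9, 13, 15 and 11. Within the low fraction, arrays 1 and 3 were lowest in these markers and in Sox7, Sox17 and Sox18. They were also lowest in fibroblast (6.12 and 6.14), pericyte (5.89 and 6.21), immune (5.055 and 4.958) and adipocyte markers (5.33 and 5.21). The list means of lymphatic, Schwann cell, melanocyte and skeletal muscle markers were not lowest on both. Across fractions, Sox17 was higher on array 12 (5.88) than on arrays 1 and 3 (5.13 and 5.33). Array 12 had the highest endothelial marker mean of the CD24 high arrays (6.45), near those of arrays 1 and 3 (6.72 and 6.55). How much of the SoxF differences goes with endothelial RNA was not tested, and the sort was for GFP+ cells after lineage depletion. The mean of the SoxF genes was 5.05 to 5.91 on CD24 high arrays and 6.29 to 8.09 on CD24 low arrays.

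**Figure D2:**
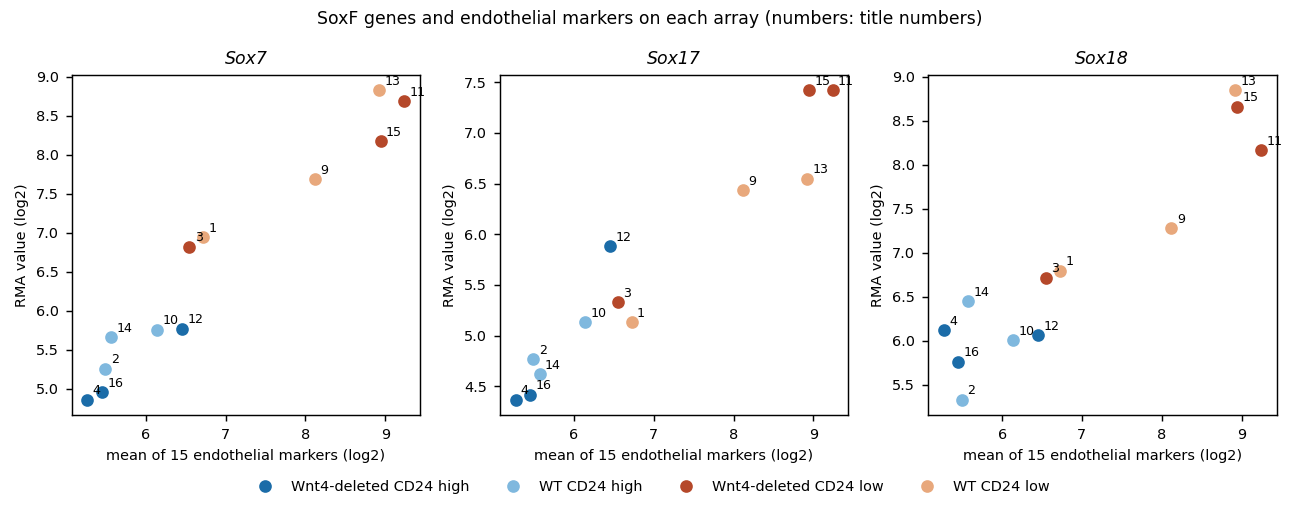
Values of Sox7, Sox17 and Sox18 (RMA, log2, vertical axes) against the mean of 15 endothelial markers (log2, horizontal axis), 1 point per array, coloured by group and numbered by title. Arrays 1 and 3 lie lowest of the CD24 low arrays on both axes, with marker means of 6.72 and 6.55, against 8.12 to 9.24 on the other 4.

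Of 8 genes known as targets of SoxF factors in vessels, 4 passed as lower in Wnt4-deleted CD24 high cells and 3 in WT CD24 high cells, with medians of -2.42 and -2.18. Vcam1, an adhesion molecule that myoepithelial cells also carry, was lower, at -3.89 and -4.07 (SE 0.41 each). Tek, the angiopoietin receptor, was lower, at -2.89 and -2.41 (SE 0.68 each). Cdh5, Cldn5, Flt1 and Tek stand in the lists of endothelial markers and of SoxF targets, so these lists are not independent. Flt1 passed in Wnt4-deleted cells alone (-2.92, SE 0.84, adjusted p = 0.0362, against -2.60, SE 0.84, adjusted p = 0.0595 in WT cells). Prox1, the lymphatic regulator that Sox18 switches on in mouse embryos, had differences of -0.01 and -0.24 (SE 0.45 each), did not pass, and is named for that role and not for its size of change. Of lymphatic markers, Prox1 among them, 5 of 6 were measured. In CD24 high cells 4 of them passed as lower in Wnt4-deleted cells and 3 in WT cells, led by Pdpn (-4.42 and -4.13, SE 0.20 each), which myoepithelial cells express too. Their list mean, which includes Pdpn, was not low on both arrays 1 and 3 (7.05 and 7.42, against 7.06 to 7.38 on the other CD24 low arrays). The members were not alike in this, as Prox1 was lowest there (4.83 and 4.91, against 5.37 to 6.77). Of 9 partner genes of Sox factors, 2 passed in each genotype, both lower in CD24 high cells. Snai2, which acts with Sox9 in mammary stem cells, was lower, at -4.23 and -3.97 (SE 0.27 each), and Mef2c, a muscle and vessel factor, had -2.90 and -2.39 (SE 0.23 each). The first value of each pair is that of Wnt4-deleted cells.

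**Figure D3:**
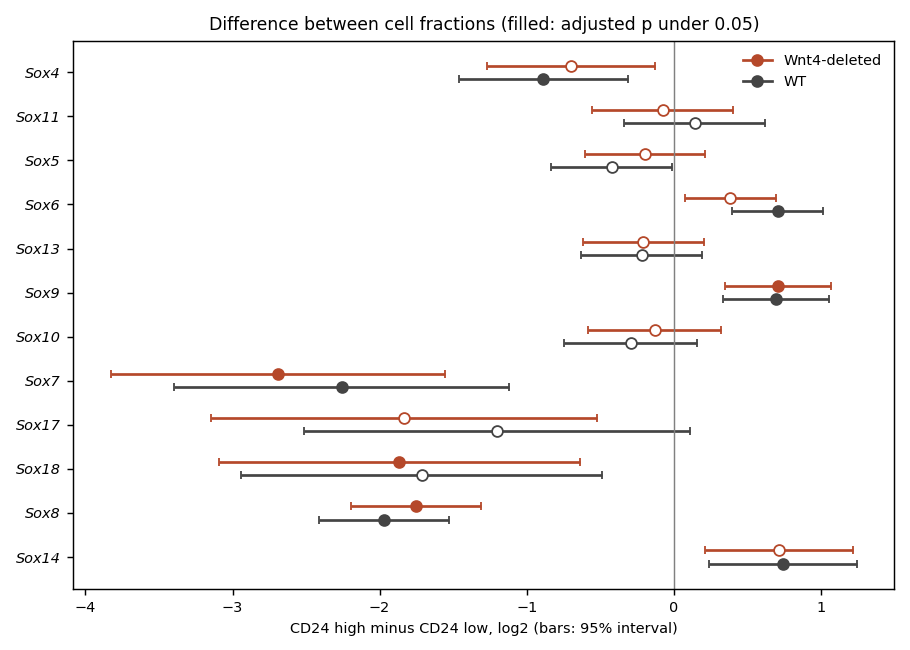
CD24 high minus CD24 low differences (log2) of the 10 Sox genes and of Sox8 and Sox14, with 95% intervals, in Wnt4-deleted cells and WT cells. Filled points passed an adjusted p of 0.05, and the intervals of the SoxF genes are the widest, from -3.83 to -1.56 for Sox7 in Wnt4-deleted cells.

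Whether deleting Wnt4 changed the Sox genes was asked in each fraction, since Wnt4 is made by luminal cells and its signal is received by the neighbouring myoepithelial cells. None of the 10 Sox genes passed in either fraction by limma, whose background here was 1 of 19938 genes (0.00502%) in each fraction, the coat colour gene nonagouti, higher in Wnt4-deleted cells. Wnt4 itself did not pass in CD24 high cells either, as given above, so a gene that did not pass cannot be called unchanged. At an unadjusted p under 0.05 there were 0 Sox genes in CD24 low cells, against 3.06% of all genes. In CD24 high cells there was 1, Sox6, against 1.99% of all genes. The differences ranged from -0.39 for Sox10 to 0.69 for Sox17 in CD24 low cells, and from -0.36 for Sox7 to 0.05 for Sox18 in CD24 high cells. The median over the 10 genes was -0.13 in the low and -0.17 in the high fraction, against -0.02 and -0.03 over all genes. The genotypes did not overlap for 1 Sox gene in each fraction, both times lower in Wnt4-deleted cells, which were Sox10 in CD24 low cells (6.77% of all genes did not overlap, in either direction) and Sox6 in CD24 high cells (7%, in either direction).

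Sox6 averaged 6.13 ± 0.13 in Wnt4-deleted CD24 high cells and 6.48 ± 0.11 in WT CD24 high cells (SD, n = 3 each). The 3 deleted arrays lay below the 3 WT arrays, and the sets of title numbers gave -0.12, -0.59 and -0.36. The difference was -0.36 (SE 0.14, unadjusted p = 0.0276, adjusted p = 1). In CD24 low cells it was -0.03 (SE 0.14), with overlapping arrays.

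Sox10 averaged 8.08 ± 0.03 in Wnt4-deleted CD24 low cells and 8.46 ± 0.34 in WT CD24 low cells (SD, n = 3 each). All 3 deleted arrays lay below all 3 WT arrays, the nearest being array 3 at 8.10 in deleted cells and array 1 at 8.16 in WT cells. The difference was -0.39 (SE 0.21, unadjusted p = 0.0868, adjusted p = 1), and in CD24 high cells it was -0.22 (SE 0.21) with overlap. Averaged over both fractions it was -0.30 (SE 0.15, unadjusted p = 0.0597, adjusted p = 0.994).

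The paper on these arrays names Sox9 among stem and progenitor markers and reports it as decreased in Wnt4-deleted myoepithelial cells. The test behind that report is not given in the sources used here. By limma Sox9 did not pass. It differed by -0.24 (SE 0.16) in CD24 low and -0.23 (SE 0.16) in CD24 high cells. The difference between these was -0.01 (95% interval -0.52 to 0.50). The sets of title numbers were not alike. Set 1 to 4 gave 0.02 in the low and 0.01 in the high fraction, set 9 to 12 gave -0.45 and -0.41, and set 13 to 16 gave -0.30 and -0.30. Sox9 lay lower in deleted cells in both sets numbered 9 to 16 and level in the other. The average over fractions was -0.24 (95% interval -0.49 to 0.02, unadjusted p = 0.0632, adjusted p = 0.994).

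Sox4 averaged 10.07 ± 0.59 in Wnt4-deleted CD24 low cells and 10.39 ± 0.24 in WT CD24 low cells, a difference of -0.31 (SE 0.26), and its sets gave 0.16, -0.29 and -0.81. In CD24 high cells the difference was -0.12 (SE 0.26). Sox13 differed by -0.22 in the low and -0.21 in the high fraction (SE 0.19 each). Sox5 differed by -0.22 and 0.01 (SE 0.19 each), and Sox11 by 0.23 and 0.01 (SE 0.22 each). All of these had overlapping genotypes.

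The SoxF genes had the widest intervals of the 10 genes between genotypes. In CD24 low cells Sox7 differed by 0.07 (95% interval -1.06 to 1.21), Sox17 by 0.69 (-0.627 to 1.998) and Sox18 by 0.21 (-1.02 to 1.44). In CD24 high cells they differed by -0.36 (-1.50 to 0.78), 0.05 (-1.26 to 1.36) and 0.05 (-1.18 to 1.28). In CD24 low cells 15 of 15 endothelial markers had a positive difference, 0 of them passing by limma and 0 with an unadjusted p under 0.05, with a median of 0.37. The mean of the 15 markers was 9.24 on array 11 against 8.12 on array 9, and 8.94 on array 15 against 8.92 on array 13. It was 6.55 on array 3 against 6.72 on array 1. Skeletal muscle markers were positive for 8 of 8 with a median of 0.37, and fibroblast markers for 4 of 10. The part of the endothelial markers in the SoxF values was not tested.

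The difference between the 2 genotype effects, CD24 low minus CD24 high, passed for 0 of 10 Sox genes and 0% of all genes by limma (adjusted p = 1 for each Sox gene), and 0 of the 10 Sox genes had an unadjusted p under 0.05, as did 1.37% of all genes. It ranged from -0.23 for Sox5 to 0.64 for Sox17. Averaged over the fractions, 0 of 10 passed (adjusted p = 0.994 to 0.995, 0.00502% of all genes) and 0 had an unadjusted p under 0.05 (3.58% of all genes). None of the 10 other Sox genes passed by genotype by limma, and 1 in each fraction had an unadjusted p under 0.05 (Sox8 in CD24 low and Sox12 in CD24 high cells). Sox12, the third SoxC gene, had an interaction of -0.70 (SE 0.27, adjusted p = 1 by limma), with -0.24 (SE 0.19) in CD24 low and 0.46 (SE 0.19) in CD24 high cells, and it was named after its values were seen.

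**Figure D4:**
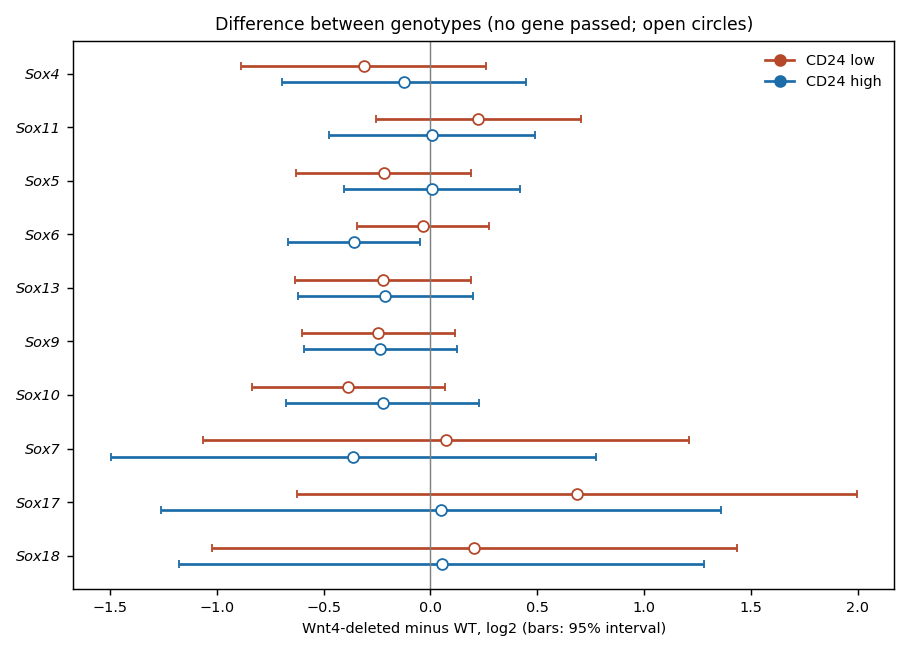
Wnt4-deleted minus WT differences (log2) of the 10 Sox genes with 95% intervals, in CD24 low and CD24 high cells. No gene passed, and every interval but that of Sox6 in CD24 high cells (-0.67 to -0.05) includes 0.

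The genes whose pattern over the 12 arrays was most like that of a Sox gene were ranked by Pearson's r for the 4 Sox genes whose group means span at least 1 on the log2 scale. All arrays share the fraction difference and the contents of each sort, so r is a description. For Sox7 they were Ret (r = 0.991), Npr1 (0.983), which encodes a natriuretic peptide receptor, and Procr (0.982), the protein C receptor. For Sox17 they were Tmem88 (0.977), Adgrl4 (0.976), an endothelial adhesion receptor, and Gimap6 (0.975). For Sox18 they were Ccdc3 (0.963), Ripk3 (0.961), a necroptosis kinase, and Lmo2 (0.961), a blood and vessel transcription cofactor. For Sox4 they were Dhx33 (0.968), an RNA helicase, Nkd2 (0.966), an inhibitor of Wnt signalling, and BC106179 (0.964).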

How the data were processed

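Total RNA of the sorted cells was amplified, biotin-labelled with the Ovation kits and hybridised to 12 Affymetrix arrays. Per the submitters' processing notes, probes were summarised by the authors with RMA (Affymetrix Expression Console, version 1.1.2800), which corrects background, normalises by quantiles and gives log2 values. The deposited table ran over 1.62 to 13.8, with array medians of 5.64 to 5.82. The number of arrays limits the precision, and there is no depth. Groups come from the titles. No 2 arrays were identical; arrays of 1 group correlated at 0.963 to 0.991, and arrays of different fractions at 0.905 to 0.939.

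Of 35556 probesets, 21789 had 1 gene symbol and were used; 1621 with several symbols were dropped, as were 12146 not listed in the probe table. For the 999 genes with several probesets the one with the highest mean was used, which left 19938 genes. limma 3.58.1 (R 4.3.3) was fitted to all genes with 1 mean per group over 12 arrays (8 residual degrees of freedom, 11.05 after moderation), two-sided, with Benjamini-Hochberg adjustment over all genes within each of 6 comparisons and a threshold of 0.05. No test for the arrays is given in the sources used here. The fit was tested on simulated data. Differences are means of log2 values, and intervals are at 95%. Nothing ties samples to separate animals, so a p-value reflects only how far these samples spread, which may be technical.

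The 10 Sox genes were all described. Other Sox genes were named where they passed, up to 4 genes of each list were named by size of change among those that passed or else by the smallest unadjusted p, and Wnt4 was a check of the labels. Sox12, Prox1, nonagouti and Cldn5 fall outside this rule and were named after their values were seen, Cldn5 only because it stands in both lists. The members and lists were chosen with earlier results of these data known. List counts carry no test. Alternatives were the mean of a gene's probesets, a filter at the 40th percentile, array weights, centring on array medians, quantile normalisation run again, a robust prior with a trend on intensity, a fixed or random replicate block for the sets of title numbers, arrays 9 to 16 only, the compared groups only, thresholds of 0.1 and 0.01, and 1 array left out at a time.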

Additional observations from a re-analysis of the deposited data

How the results depend on the processing

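The 12 arrays limit what can be seen, and Sox11 lay among dim probesets. Over all genes, the count that passed between genotypes was 1 in each fraction. It became 0 in both fractions with arrays 9 to 16 only, 2 in the low fraction when array 3 was left out, and 0 there with the compared groups only, and leaving out arrays 1 at a time gave 1 to 2 in CD24 low and 1 to 1 in CD24 high cells. Between fractions, the count of all genes was 3278 in Wnt4-deleted cells (1854 at a threshold of 0.01, 2156 to 3628 over single arrays left out, the lowest without array 16) and 3218 in WT cells (1843 at 0.01, 5215 with array weights, 2282 to 3526 over single arrays left out).

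Of the 10 Sox genes, 3 passed between fractions in Wnt4-deleted cells and 4 in WT cells. In Wnt4-deleted cells 5 passed with array weights, 5 with the fixed replicate block, 1 with the compared groups only, 6 at a threshold of 0.1 and 1 at 0.01, with 2 to 4 over single arrays left out. In WT cells 1 passed at 0.01, with 3 to 5 over single arrays left out. With the fixed replicate block of title sets, Sox4 (adjusted p = 0.0256) and Sox17 (0.0108) passed in Wnt4-deleted cells and Sox18 (0.0155) in WT cells. With the random replicate block (consensus correlation 0.0501), Sox17 (0.0444) passed in Wnt4-deleted and Sox18 (0.0464) in WT cells. Title numbers are not shared between groups, and no label ties a set to an experiment or an animal. Some CD24 low arrays of 1 set were alike in content. Arrays 1 and 3 were high in skeletal muscle markers (7.18 and 8.13) and arrays 9 and 11 in fibroblast markers (8.81 and 8.42). The main fit did not use the sets. Sox7, Sox9 and Sox6 passed in WT cells under all 22 alternatives that keep the threshold, and Sox9 passed in Wnt4-deleted cells under 21.

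No Sox gene passed between genotypes under any alternative. Differences near 0 changed sign. With array weights, the Wnt4-deleted minus WT difference was -0.021 for Sox7 in CD24 low cells, -0.081 for Sox11, -0.25 for Sox17 and -0.28 for Sox18 in CD24 high cells, and -0.11 for Sox18 averaged over both. With arrays 9 to 16 only it was 0.052 for Sox6 in CD24 low cells, and 0.065 for Sox13 and -0.315 for Sox18 in CD24 high cells. A second quantile normalisation gave interactions of 0.087 for Sox9 and 0.037 for Sox13. Leaving out single arrays, the genotype difference in CD24 low cells spanned 0 for Sox6 (-0.16 to 0.088), Sox7 (-0.37 to 0.61) and Sox18 (-0.22 to 0.81). In CD24 high cells it did so for Sox5 (-0.17 to 0.10), Sox11 (-0.15 to 0.16), Sox17 (-0.45 to 0.31) and Sox18 (-0.25 to 0.31), and averaged over fractions for Sox7 (-0.36 to 0.12) and Sox18 (-0.082 to 0.43). The interaction did so for Sox4 (-0.53 to 0.027), Sox7 (-0.004 to 0.97), Sox9 (-0.18 to 0.12), Sox10 (-0.31 to 0.036), Sox13 (-0.19 to 0.15) and Sox18 (-0.27 to 0.76). Between fractions it was so for Sox10 (-0.21 to 0.002) and Sox11 (-0.21 to 0.077) in Wnt4-deleted cells, and for Sox11 in WT cells (-0.066 to 0.32). The causes were not tested.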
